A study of Mus musculus with 12 samples.

Results

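Peroxins are the proteins that build peroxisomes, supply their membranes, import their enzymes and divide them. The 9 peroxin genes described here are Pex11a, Pex11g, Pex3, Pex16, Pex19, Pex5, Pex7, Pex13 and Pex14. They were chosen by name, with earlier results of these data known. All 9 were found among the 26748 genes of the deposited table, and all 9 passed the filter on low values. The RNA came from hepatocytes of male C57bl/6 mice. Floxed mice carry an intact Rxra gene with recombination sites added, and the other mice are labelled as a hepatic knockout of RXRα. Each genotype was studied without and with bexarotene, a drug that activates retinoid X receptors, at 100 mg/kg once daily for 5 days. Untreated here means without bexarotene only. The 12 libraries formed 4 groups of 3. The Cre driver of the knockout, the ages of the mice and what the controls received are not given in the sources used here.

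Peroxisomes are organelles that shorten very long-chain and branched fatty acids, detoxify hydrogen peroxide and take part in bile acid and ether lipid synthesis. In rodent liver they multiply when PPARα, a nuclear receptor for fatty acids that binds DNA as a pair with RXR, is activated, and genes of peroxisomal fatty acid oxidation rise. PEX3, PEX16 and PEX19 place proteins in the peroxisomal membrane. PEX5 and PEX7 are cytosolic receptors that recognise enzymes bound for the matrix by short signals, and PEX13 and PEX14 are the membrane proteins at which the loaded receptors dock. Proteins of the PEX11 family elongate the membrane before division, and Pex11a is the family member known in mice as a PPARα target.

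The promoters of Pex11a and Pex11g are shown because Pex11a had the largest of the 9 bexarotene differences in floxed mice, while Pex11g belongs to the same family and did not pass the test there. Each window runs from 250 bases before to 50 bases after the RefSeq start of the gene on GRCm38.p6 and is printed on the gene's own strand, the minus strand for both. The Pex11a window is chr7:79743082-79743381 and the Pex11g window is chr8:3467599-3467898. Capitals mark AGGTCA, the hexamer of which RXR pairs bind repeats.
Pex11a: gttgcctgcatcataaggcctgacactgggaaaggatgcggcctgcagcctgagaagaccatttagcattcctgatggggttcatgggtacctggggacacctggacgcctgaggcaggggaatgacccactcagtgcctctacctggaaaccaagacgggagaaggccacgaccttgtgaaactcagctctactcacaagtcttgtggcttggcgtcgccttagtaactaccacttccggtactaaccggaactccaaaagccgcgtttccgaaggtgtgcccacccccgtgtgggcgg
Pex11g: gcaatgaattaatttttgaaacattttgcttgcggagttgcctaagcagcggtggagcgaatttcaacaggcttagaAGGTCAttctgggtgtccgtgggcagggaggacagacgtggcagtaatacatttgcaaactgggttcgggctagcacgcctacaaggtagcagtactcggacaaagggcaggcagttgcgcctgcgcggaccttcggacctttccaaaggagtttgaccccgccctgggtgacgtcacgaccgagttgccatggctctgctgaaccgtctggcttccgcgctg

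The direct repeat that PPARα and RXR pairs bind was searched on both strands as AGGTCA, any 1 base and AGGTCA again. It was present in 13 of 32851 RefSeq promoter windows of this length, or 0.0396%, and in 0 of the 11 windows of these peroxins. The hexamer AGGTCA alone, searched on both strands and contained within the repeat, was present in 5340 windows, or 16.3%, and in 1 of the 11, that of Pex11g at position 78 counted from the 5′ end. The table held windows for 8 of the 9 genes. GC content was 57.3% in the Pex11a window with 13 CpG, and 55.3% in the Pex11g window with 19 CpG, beside medians of 52.7% and 7 over all windows. A match describes the letters of the window only.

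Values are TPM, a StringTie unit that corrects for transcript length and sets every library to the same total, so the read depth behind each value is unknown. Between 9713 and 10470 genes per library reached 1 TPM. Libraries are named by the number in their column header. Some libraries of a group were nearly the same. The SD of the log2 difference that counting noise leaves unexplained was 0.0509 between floxed controls 1 and 3 and 0.0386 to 0.0733 among the 3 treated knockout libraries, against 0.152 to 0.474 in the other 8 pairs of a group. Each of these close sets was averaged and counted as 1 sample, which left 2 floxed control, 3 treated floxed, 3 knockout control and 1 treated knockout sample. Separate animals are not stated in the labels, so the spread behind every p-value is that among these samples and may be technical. Rxra stood at 79.54 to 86.05 TPM in the 6 floxed libraries and at 26.13 to 33.06 TPM in the 6 knockout libraries, with no overlap.

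Hepatocyte markers (7 of 8 listed genes in the table) summed to 63100 to 71100 TPM in floxed controls, 56400 to 60200 in treated floxed, 68400 to 79700 in knockout controls and 65500 to 67700 in treated knockout libraries. The 11 macrophage markers summed to 23.1 to 82.2, 17.9 to 62.2, 14.1 to 30.1 and 65.7 to 74.3 TPM in the same order, the 4 neutrophil markers to 15.6 to 53.6, 5.29 to 13, 11.8 to 37.2 and 7.6 to 10.1 TPM, and the 3 erythroid markers to 140 to 402, 170 to 358, 187 to 296 and 406 to 438 TPM. The 6 stellate markers summed to 0.6 to 1.75, 0.59 to 1.37, 2.56 to 4.3 and 2.31 to 3.05 TPM, and the 5 cholangiocyte markers to 2.48 to 4.73, 2.46 to 4.02, 1.14 to 2.05 and 2.29 to 2.54 TPM. Neutrophil and hepatocyte markers were lower in the treated than in the control libraries of both genotypes without overlap. Macrophage, erythroid and cholangiocyte markers were higher in treated than in control knockout libraries without overlap. Stellate markers were higher in all knockout than in all floxed libraries. Over all libraries the sums were 8.88 to 19.9 TPM for 8 endothelial and 0.73 to 4.44 for 6 lymphocyte markers. None of these markers was at 0 in every library, and their part in the results was not tested. In such bulk samples, fewer cells of a type and less RNA per cell cannot be told apart. Clock genes also divided the groups. The mean log2 level of 9 evening genes minus that of 5 morning genes was −1.330 to −0.741 in floxed controls, and in treated floxed libraries it was 1.513 to 2.266. It was 1.536, 1.437 and −1.756 in knockout controls 1, 2 and 5, and 0.937 to 1.020 in treated knockout libraries.

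With bexarotene, 2 of the 9 peroxin genes rose in floxed mice, Pex11a and Pex19, and the other 7 did not pass the test. The share of all 11018 tested genes called at an adjusted p under 0.05 (limma, Benjamini-Hochberg over all tested genes) was 2.12% in either direction, 1.84% for higher and 0.281% for lower levels. The median difference of the 9 genes was 0.32 on the log2(TPM + 1) scale, beside 0.0618 for all tested genes. All 9 estimates lay above 0, as did 58.6% of all tested genes, although with quantile normalization the Pex7 estimate was −0.0010. Because the 9 were chosen with earlier results known, their medians and signs in either genotype are no test of peroxins as a family. Of 4 other tested peroxins, 2 lay above 0 in floxed mice, with a median of 0.05. The clock difference between treated and control floxed libraries cannot be told apart from the drug in any of these values. The neutrophil sum (15.6 to 53.6 TPM in controls and 5.29 to 13 in treated libraries) and the hepatocyte sum also did not overlap between these groups, and their part in the rise of Pex11a and Pex19 was not tested.

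In knockout mice none of the 9 genes passed the test with bexarotene. The share of tested genes called was 0.517% in either direction, 0.417% for higher and 0.0998% for lower levels. At an unadjusted limma p under 0.05 there was 1, Pex19, beside 9.17% of all tested genes. The limma fit to 12 separate libraries called Pex19 alone among the 9. That fit counts the close libraries as separate samples, so its p-values may be too small. All 9 estimates again lay above 0, beside 63.3% of all tested genes, except that the Pex5 estimate was −0.02 with median scaling. Their median was 0.32 beside 0.0976 for all tested genes, a median that median scaling moved to −0.0058, quantile normalization to −0.0306 and removal of the GC and length trend to −0.0326. Under the same changes the median of the 9 in knockout mice was 0.21, 0.20 and 0.15, and in floxed mice it was 0.24, 0.22 and 0.22. The knockout has a lone treated sample, whose spread is taken from the other groups.

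Between genotypes, none of the 9 genes passed the test without bexarotene, where 3.76% of tested genes were called (1.83% higher and 1.92% lower). An unadjusted limma p under 0.05 was held by 2, Pex16 and Pex19, and by 17% of all tested genes. Under bexarotene none passed either, with 1.93% of tested genes called (0.681% higher and 1.25% lower). There, 2 had an unadjusted limma p under 0.05, Pex11a and Pex19, beside 11.8% of all tested genes. With close libraries counted separately, the fit to 12 libraries called Pex16 and Pex19 lower in the knockout without bexarotene. Under bexarotene it called Pex11a, Pex16 and Pex19 lower. The medians of the 9 were −0.11 without and −0.20 with bexarotene, beside 0.00386 and 0.0401 for all tested genes. For the difference between the bexarotene effects of the genotypes, 0.200% of tested genes were called and none of the 9. None of the 9 had an unadjusted limma p under 0.05, beside 9.34% of all tested genes. None was called in the fit to 12 libraries. The comparisons between genotypes use the same samples as those of the drug. In the clock difference, knockout controls 1 and 2 (1.536 and 1.437) lay above the floxed controls (−1.330 to −0.741), and control 5 (−1.756) lay below them. Treated knockout libraries (0.937 to 1.020) lay below treated floxed libraries (1.513 to 2.266). The part of these clock differences in the values between genotypes was not tested.

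**Figure D1:**
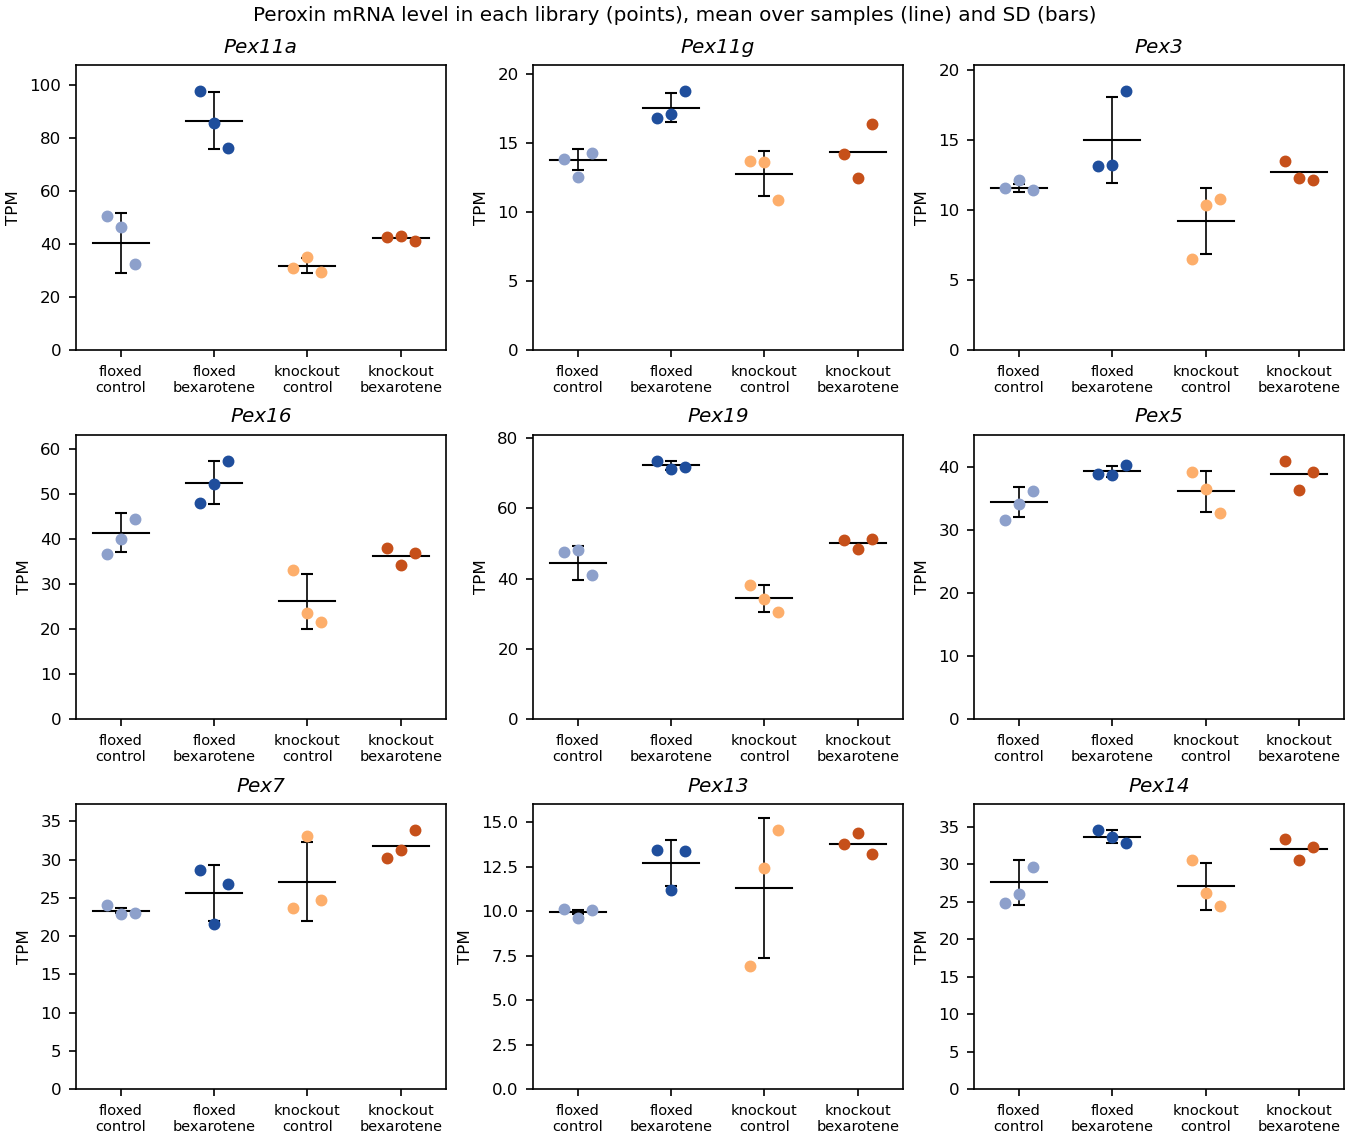
Level of each of the 9 peroxin genes (TPM, linear axis from 0) in the 4 groups. Points are the 12 libraries, lines the mean over samples with close libraries averaged, and bars the SD over 2, 3 and 3 samples, with none for the treated knockout. Treated floxed libraries lie above every other library for Pex11a (76.41 to 97.81 TPM) and Pex19 (71.21 to 73.53 TPM). The same holds for Pex16 (48.05 to 57.46 TPM) and Pex11g (16.82 to 18.79 TPM), which did not pass the test. Close libraries are drawn as separate points, and the share of all tested genes separated in this way was not computed.

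Pex11a, which takes part in the elongation and division of peroxisomes, is gene ENSMUSG00000030545 at chr7:79735957-79743131 on the minus strand (GRCm38). Its level was 50.64, 46.28 and 32.48 TPM in floxed controls 1, 3 and 4 and 97.81, 85.67 and 76.41 TPM in treated floxed libraries 1, 3 and 4. Every treated floxed library lay above every control. Here and for the other peroxins, the share of all tested genes without such overlap was not computed. The group means were 40.5 ± 11.3 (SD, n = 2) and 86.6 ± 10.7 TPM (SD, n = 3), a ratio of 2.14. The log2 difference was 1.10 ± 0.19 (SE; 95% interval 0.66 to 1.53; limma adjusted p = 0.0267).

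The call of this rise was lost when any of 3 samples was left out. Without floxed control 4, the lowest of the controls, the log2 difference was 0.82 and the limma adjusted p 0.232. Floxed control 4 also had higher marker sums than floxed controls 1 and 3. These were 82.2 against 23.1 and 26.7 TPM for macrophage and 53.6 against 18.7 and 15.6 TPM for neutrophil markers. For erythroid markers they were 402 against 141 and 140 TPM. Its clock difference, −1.330, was the lowest of the floxed controls. The part of these in the Pex11a values was not tested. Without treated floxed library 1 the log2 difference was 1.01 (limma adjusted p = 0.118), and without library 3 it was 1.10 (adjusted p = 0.105). The call was also lost with no filter (1.10, adjusted p = 0.0955), quantile normalization (0.94, adjusted p = 0.0582) and median scaling (1.02, adjusted p = 0.0510).

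In knockout mice Pex11a stood at 31.15, 35.14 and 29.41 TPM in controls 1, 2 and 5 and at 42.66, 43.02 and 41.34 TPM in treated libraries 1, 2 and 3. The treated libraries lay above the controls of their genotype and within the range of the untreated floxed mice. The means were 31.9 ± 2.94 (SD, n = 3) and 42.3 TPM (n = 1), a ratio of 1.33, and the log2 difference of 0.40 ± 0.24 did not pass the test (interval −0.15 to 0.95; limma adjusted p = 0.713). Knockout control 5, whose clock difference of −1.756 lay far from the 1.536 and 1.437 of controls 1 and 2, had the lowest Pex11a of the group.

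Under bexarotene the knockout mean of Pex11a was 0.489 times the floxed mean, and the log2 difference of −1.01 ± 0.24 had an adjusted p of 0.0898 in limma (interval −1.56 to −0.46). It was called in the fit to 12 separate libraries, which counts the close libraries as separate samples (limma adjusted p = 0.00108). Without bexarotene the knockout mean was 0.788 times the floxed mean and the groups overlapped (−0.31 ± 0.19, limma adjusted p = 0.472). The bexarotene effect in knockout minus that in floxed mice was −0.70 ± 0.31 (interval −1.40 to 0.0035; limma adjusted p = 0.537). The difference between the responses of the genotypes therefore did not pass the test.

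Pex11g, a family member also linked to peroxisome division, is ENSMUSG00000069633 at chr8:3457105-3467680, minus strand. It stood at 12.59 to 14.31 TPM in floxed controls, 16.82 to 18.79 in treated floxed, 10.88 to 13.75 in knockout controls and 12.49 to 16.42 TPM in treated knockout libraries. The treated floxed libraries did not overlap their controls, whereas those of the knockout did. The log2 difference was 0.33 ± 0.14 in floxed mice (limma adjusted p = 0.321) and 0.17 ± 0.18 in knockout mice (adjusted p = 0.885). Between genotypes it was −0.11 ± 0.14 without and −0.27 ± 0.18 with the drug (limma adjusted p = 0.785 and 0.694). An antisense gene model, Gm44775, shares 1396 exonic bases with Pex11g, and the labels do not state strand-aware counting, so its values are less certain.

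Pex19 encodes the chaperone that carries newly made membrane proteins to the peroxisome, and the gene is ENSMUSG00000003464 at chr1:172126755-172136493 on the plus strand. It stood at 47.44, 48.22 and 40.94 TPM in floxed controls 1, 3 and 4 and at 73.53, 71.21 and 71.82 TPM in treated floxed libraries 1, 3 and 4. In knockout mice it was 38.24, 34.34 and 30.49 TPM in controls 1, 2 and 5, and 50.85, 48.41 and 51.14 TPM in treated libraries 1, 2 and 3. The 4 groups did not overlap, in the rising order of knockout control, floxed control, treated knockout and treated floxed, although the highest floxed control and the lowest treated knockout library were close.

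In floxed mice the Pex19 mean went from 44.4 ± 4.87 (SD, n = 2) to 72.2 ± 1.20 TPM (SD, n = 3), a ratio of 1.63, with a log2 difference of 0.69 ± 0.13 (interval 0.39 to 1.00; limma adjusted p = 0.0423). In knockout mice it went from 34.4 ± 3.88 (SD, n = 3) to 50.1 TPM (n = 1), a ratio of 1.46, with 0.54 ± 0.17 (interval 0.15 to 0.93; limma adjusted p = 0.318). The estimates were close to each other, and the effect in knockout minus that in floxed mice was −0.16 ± 0.22 (interval −0.65 to 0.34; limma adjusted p = 0.866). The fit to 12 libraries called Pex19 in the knockout too (0.54, limma adjusted p = 0.00566). It counts the 3 close treated knockout libraries as separate samples, so this p-value may be too small.

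The Pex19 call in floxed mice was lost when any of 6 samples was left out, with limma adjusted p-values of 0.374 without floxed control 4, 0.141 without floxed controls 1 and 3, and 0.176, 0.144 and 0.0998 without treated floxed libraries 1, 3 and 4. Without knockout control 2 the adjusted p was 0.0761. It was also lost with no filter (adjusted p = 0.0728), quantile normalization (0.54, adjusted p = 0.102), median scaling (0.61, adjusted p = 0.109) and removal of the GC and length trend (0.61, adjusted p = 0.0918). Between genotypes Pex19 differed by −0.36 ± 0.13 without bexarotene (limma adjusted p = 0.216) and by −0.52 ± 0.17 with it (adjusted p = 0.234).

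Pex16, a membrane protein that helps bring PEX3 to the peroxisome in mammals, is ENSMUSG00000027222 at chr2:92374676-92381217 on the plus strand. It stood at 36.72, 39.98 and 44.61 TPM in floxed controls 1, 3 and 4 and at 33.20, 23.55 and 21.71 TPM in knockout controls 1, 2 and 5. Treated floxed libraries 1, 3 and 4 held 48.05, 52.22 and 57.46 TPM, and treated knockout libraries 1, 2 and 3 held 38.10, 34.19 and 37.03 TPM. The knockout controls lay below all other libraries and the treated floxed libraries above all others.

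The Pex16 mean was 41.5 ± 4.43 (SD, n = 2) in floxed and 26.2 ± 6.17 TPM (SD, n = 3) in knockout controls, a ratio of 0.631. The log2 difference of −0.67 ± 0.19 did not pass the test (interval −1.10 to −0.23; limma adjusted p = 0.111). It did so without knockout control 1 (−0.84, limma adjusted p = 0.0219), the 1 call in 9 fits that each left out a sample. It also passed with the GC and length trend removed (−0.64, limma adjusted p = 0.0249). The fit to 12 libraries, which counts close libraries as separate samples, called it too (−0.63, limma adjusted p = 0.0159). With the other pseudocounts, filters and scalings, and with only the compared groups, it was not called. With bexarotene Pex16 differed by 0.34 ± 0.19 in floxed mice and 0.49 ± 0.24 in knockout mice (limma adjusted p = 0.457 and 0.617). Under bexarotene the genotypes differed by −0.51 ± 0.24 (limma adjusted p = 0.469). Pex16 shares 127 exonic bases with Large2 on the opposite strand.

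Pex3, the membrane anchor to which PEX19 delivers its cargo, is ENSMUSG00000019809 at chr10:13523842-13553142, minus strand. It stood at 11.44 to 12.13 TPM in floxed controls, 13.14 to 18.51 in treated floxed, 6.49 to 10.83 in knockout controls and 12.18 to 13.54 TPM in treated knockout libraries. Treated libraries did not overlap the controls of their genotype, and the lowest value, 6.49 TPM, was that of knockout control 1. The log2 difference with bexarotene was 0.32 ± 0.23 in floxed and 0.45 ± 0.29 in knockout mice (limma adjusted p = 0.579 and 0.746). Without knockout control 1 the latter was 0.24. Between genotypes it was −0.33 ± 0.23 without the drug and −0.20 ± 0.29 with it (limma adjusted p = 0.536 and 0.884). Pex3 shares 249 exonic bases with Adat2 on the opposite strand.

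Pex5, the receptor for matrix enzymes that end in the common carboxy-terminal signal, is ENSMUSG00000005069 at chr6:124396816-124415067, minus strand. It stood at 31.52 to 36.12 TPM in floxed controls, 38.62 to 40.24 in treated floxed, 32.72 to 39.16 in knockout controls and 36.36 to 40.95 TPM in treated knockout libraries. Its log2 difference with bexarotene was 0.18 ± 0.12 in floxed mice (interval −0.10 to 0.47; limma adjusted p = 0.536) and 0.10 ± 0.15 in knockout mice (interval −0.25 to 0.46; adjusted p = 0.912). The treated floxed libraries did not overlap their controls, whereas those of the knockout did. The libraries of both genotypes overlapped within each treatment. Between genotypes Pex5 differed by 0.07 ± 0.12 without and −0.02 ± 0.15 with the drug (limma adjusted p = 0.857 and 0.984).

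Pex7, the receptor for the few enzymes with an amino-terminal signal, is ENSMUSG00000020003 at chr10:19853900-19907689, minus strand. It was the gene of the 9 with the smallest difference in floxed mice, 22.87 to 24.10 TPM in controls and 21.53 to 28.60 TPM in treated libraries, which overlapped (0.13 ± 0.18, limma adjusted p = 0.799). In the knockout it stood at 23.63 to 33.06 TPM in controls and 30.23 to 33.85 TPM in treated libraries (0.24 ± 0.23, limma adjusted p = 0.864). It was also the gene with the most positive difference between genotypes, 0.20 ± 0.18 without and 0.31 ± 0.23 with bexarotene, neither of which passed the test (limma adjusted p = 0.664 and 0.741).

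Pex14, the docking protein that receives loaded PEX5, is ENSMUSG00000028975 at chr4:148960535-149099876, minus strand. It stood at 24.87 to 29.66 TPM in floxed controls, 32.88 to 34.59 in treated floxed, 24.48 to 30.57 in knockout controls and 30.63 to 33.43 TPM in treated knockout libraries. Treated libraries lay above the controls of their genotype, and the genotypes overlapped within each treatment. The log2 difference with bexarotene was 0.28 ± 0.14 in floxed and 0.24 ± 0.17 in knockout mice (limma adjusted p = 0.368 and 0.768). That between genotypes was −0.03 ± 0.14 without and −0.07 ± 0.17 with the drug (adjusted p = 0.957 and 0.937). The antisense gene model Gm17029 shares 1776 exonic bases with Pex14.

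Pex13, its partner at the docking site, is ENSMUSG00000020283 at chr11:23646479-23665959, minus strand. It stood at 9.64 to 10.15 TPM in the 3 floxed controls and, once treated, at 11.17 to 13.47 TPM, which did not overlap. The knockout controls were spread from 6.90 TPM in control 1 through 12.43 in control 2 to 14.56 TPM in control 5, a range that held all treated knockout libraries, at 13.24 to 14.39 TPM. The log2 difference with bexarotene was 0.31 ± 0.27 in floxed and 0.32 ± 0.34 in knockout mice (limma adjusted p = 0.644 and 0.876), and the latter was 0.03 without knockout control 1. Between genotypes it was 0.11 ± 0.27 without and 0.12 ± 0.34 with the drug (adjusted p = 0.899 and 0.944). Pus10 on the opposite strand shares 2 exonic bases with Pex13.

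**Figure D2:**
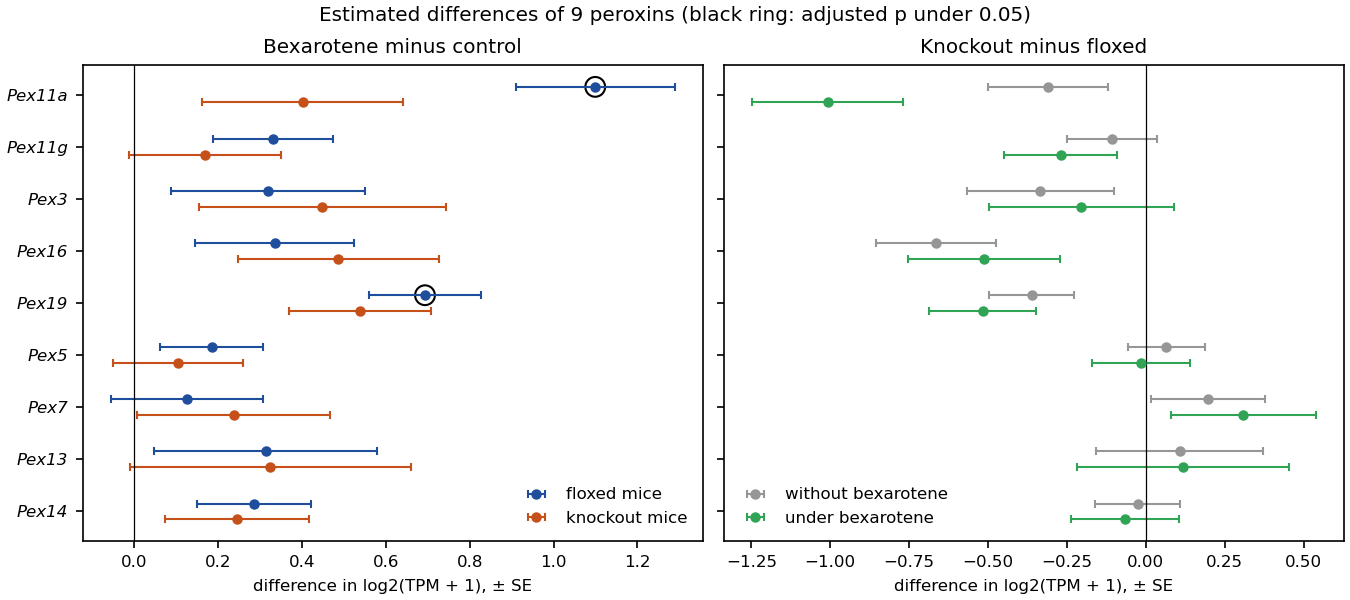
Estimated difference in log2(TPM + 1) of each peroxin gene, with bars of 1 SE. The left panel gives bexarotene minus control in floxed and knockout mice, and the right panel knockout minus floxed without and under bexarotene. Black rings mark the 2 estimates with an adjusted p under 0.05, Pex11a (1.10) and Pex19 (0.69) in floxed mice.

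Knockout control 1 differed from the mean of knockout controls 2 and 5 in a way that followed the base composition of the transcripts. The comparison was made for control 1 only, so other libraries are not shown to lack such a trend. Pex13 and Pex3, with GC contents of 38.6% and 38.5%, differed by −0.963 and −0.707 log2 from the mean of controls 2 and 5. Pex16, at 60.1% GC, differed by 0.554. Over the 9 genes the Pearson correlation of this difference with GC content was 0.92, as a description over genes of the same libraries. The 8808 tested genes with at least 1 TPM in every knockout control and a known GC content showed the same order, from a median of −0.639 in the fifth with the lowest GC content (median 41.7%) to 0.293 in the highest (median 57.4%). Pex11a, at 49.6% GC, differed by −0.045.

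**Figure D3:**
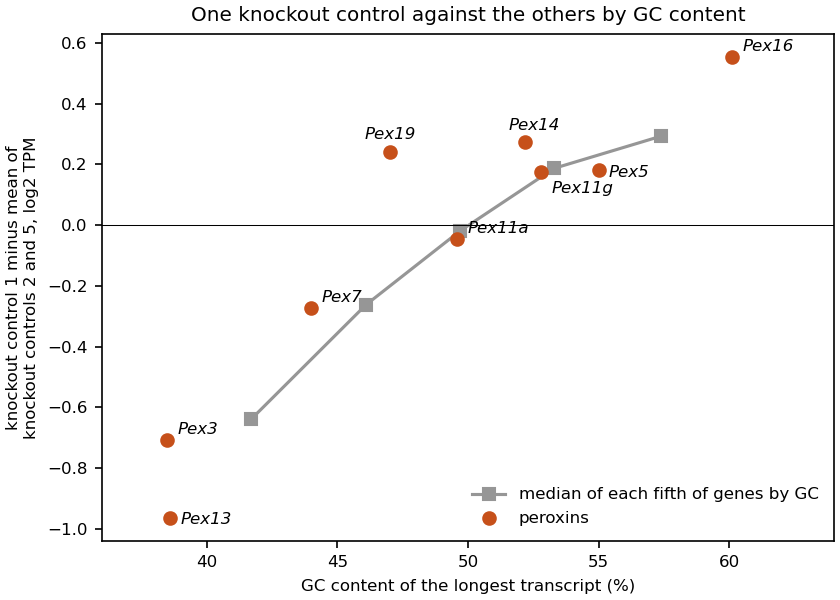
Log2 level in knockout control 1 minus the mean of knockout controls 2 and 5 (vertical axis) against GC content of the longest transcript in percent (horizontal axis). Orange points are the 9 peroxin genes and grey squares the medians of the 8808 genes in 5 classes of GC content. The peroxins run from Pex13 at −0.963 to Pex16 at 0.554 and rise with GC content as these medians do, though not all lie on their line. Pex19, at 47.0% GC, lies at 0.241, above the neighbouring medians of −0.262 at 46.1% and −0.019 at 49.7%.

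Ordered by TPM, Pex19, Pex16 and Pex11a led in floxed controls at 44.4, 41.5 and 40.5 TPM, means that differed by less than their SDs. Pex5 followed at 34.4, Pex14 at 27.6 and Pex7 at 23.3 TPM, and Pex11g, Pex3 and Pex13 were lowest at 13.8, 11.6 and 9.97 TPM. In treated floxed mice Pex11a came first at 86.6 TPM, above Pex19 at 72.2 and Pex16 at 52.6 TPM, and the other 6 kept their order. In knockout controls Pex5 at 36.1, Pex19 at 34.4 and Pex11a at 31.9 TPM led, with neighbours that differed by less than their SDs, and Pex16 was sixth at 26.2 TPM, below Pex7 and Pex14, both at 27.1 TPM. In the treated knockout sample Pex19 led at 50.1 TPM, before Pex11a at 42.3 and Pex5 at 38.8 TPM.

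Summed over the 9 genes, the level was 242.6 to 251.8 TPM in floxed controls, 344.4 to 364.9 in treated floxed, 199.7 to 225.3 in knockout controls and 263.1 to 277.8 TPM in treated knockout libraries. Ehhadh, the bifunctional enzyme of peroxisomal fatty acid oxidation, gives a scale for these differences. Its TPM was 0.369 to 0.4 times the peroxin sum in untreated floxed mice and 0.414 to 0.45 times in knockout controls. With bexarotene it was 4.8 to 5.04 times the sum in floxed and 1.31 to 1.38 times in knockout mice. The ratio of treated to control means was 18.5 for Ehhadh in floxed mice and 3.89 in knockout mice, beside 2.14 and 1.33 for Pex11a.

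Among 4 other peroxins, Pex2 and Pex10, which are ubiquitin ligase subunits that mark used PEX5, Pex6, an ATPase that helps pull it from the membrane, and Pex26, the anchor of that ATPase, none passed the test in any comparison. Their median was 0.05 in floxed and 0.01 in knockout mice with the drug, and −0.03 without and −0.09 under bexarotene between genotypes. Pex26 was uneven among the knockout controls, at 14.78, 16.20 and 4.11 TPM in controls 1, 2 and 5, while the 9 other libraries stood at 4.85 to 6.80 TPM. Its log2 difference between the untreated genotypes was 0.64 ± 0.46 (limma adjusted p = 0.555).

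Genes of division and tethering were not called in any comparison. The 5 tested genes of peroxisomal and mitochondrial division, among them the dynamin adaptors Fis1 and Mff, had medians of 0.21 in floxed and 0.14 in knockout mice with bexarotene. Mff stood at 13.48 to 15.79 TPM in controls and 19.28 to 23.58 TPM in treated libraries of floxed mice (0.51 ± 0.19, limma adjusted p = 0.245). In knockout mice its mean went the other way, from 19.2 to 15.8 TPM. There the controls (15.51 to 23.83 TPM) and treated libraries (13.79 to 17.23 TPM) overlapped. The 5 genes that tether or move peroxisomes had medians of 0.10 and 0.23.

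Of 7 genes of protein processing and turnover, 2 fell in the knockout without bexarotene and 1 of these also under it. Tysnd1, the protease that trims imported matrix enzymes, stood at 19.36 to 22.34 TPM in floxed and 9.05 to 10.95 TPM in knockout controls (−0.93 ± 0.15, limma adjusted p = 0.0146). Under bexarotene it was at 24.59 to 30.69 and 9.40 to 10.09 TPM (−1.35 ± 0.19, adjusted p = 0.0116). Lonp2, the peroxisomal Lon protease, stood at 106.32 to 123.30 in floxed and 57.58 to 61.93 TPM in knockout controls (−0.94 ± 0.11, adjusted p = 0.00402). The Tysnd1 call without bexarotene was lost without floxed control 4 (limma adjusted p = 0.0958), without floxed controls 1 and 3 (adjusted p = 0.138) and with only the compared groups, and the Lonp2 call without floxed control 4 (adjusted p = 0.0624). With bexarotene none of the list was called, and its medians were 0.15 in floxed and 0.07 in knockout mice.

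Of 9 tested membrane transporters, Slc27a2, an acyl-CoA synthetase and fatty acid transporter, rose with bexarotene in floxed mice, from 439.60 to 581.90 TPM in controls to 1079.05 to 1306.49 TPM (1.25 ± 0.15, limma adjusted p = 0.00595). It was lower in the knockout under bexarotene, at 469.28 to 482.06 TPM (−1.33 ± 0.19, adjusted p = 0.0116). The call with the drug was lost without floxed control 4 (limma adjusted p = 0.0715), and that between genotypes without treated floxed library 1 (adjusted p = 0.0516). The list's medians were 0.31 in floxed and 0.35 in knockout mice.

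Of the 15 fatty acid oxidation enzymes, which act on fatty acids inside the organelle, with bexarotene 4 rose in floxed mice (median 0.58), Ehhadh, Decr2, Acaa1b and Eci2, and 2 in knockout mice (median 0.33), Ehhadh and Acaa1b. Ehhadh went from 94.7 ± 7.19 (SD, n = 2) to 1750 ± 94.3 TPM (SD, n = 3) in floxed mice (4.20 ± 0.11, limma adjusted p = 2.1e-06). In the knockout it went from 93.7 ± 4.59 (SD, n = 3) to 365 TPM (1.95 ± 0.14, adjusted p = 0.00137). Between genotypes 3 of the 15 were lower in the knockout without bexarotene (Acaa1b, Decr2 and Pecr) and 5 under it (Ehhadh, Decr2, Acaa1b, Eci2 and Hsd17b4), with medians of −0.53 and −0.57. In floxed mice the Ehhadh call held in every alternative, whereas those of Acaa1b, Eci2 and Decr2 were lost in 5, 5 and 3 of 9 fits that each left out a sample (highest limma adjusted p 0.211, 0.212 and 0.121) and with no filter, and that of Eci2 also with both scalings and with the GC and length trend removed. In knockout mice both calls were lost with only the compared groups, and that of Acaa1b also in 2 of 8 fits with a sample left out. Between genotypes Pecr was lost in 5 of 9 such fits without bexarotene, and Hsd17b4 and Eci2 in 6 and 3 of 8 under it. Pecr was also lost with no filter, with median scaling and with only the compared groups. Hsd17b4 was also lost with quantile normalization and with only the compared groups. Acaa1b has a near-identical copy, Acaa1a, between which reads can be split, so its values are uncertain.

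Of 20 other tested matrix enzymes, 3 rose with bexarotene in floxed mice, Uox (urate oxidase), Mlycd and Ephx2, and none in knockout mice, with medians of 0.05 and 0.08. Uox, Phyh and Hao1 were higher in the knockout without bexarotene, and Ephx2 was lower in it under the drug. Leaving out a sample ended the calls of Uox, Mlycd and Ephx2 with the drug in 4, 5 and 6 of 9 fits, and those of Uox, Phyh and Hao1 between untreated genotypes in 6, 6 and 7 of 9. All 6 of these calls were also lost with no filter. With the drug, the calls of Mlycd and Ephx2 were also lost with quantile normalization and median scaling. Those of Uox, Phyh and Hao1 between untreated genotypes were also lost with quantile normalization and with only the compared groups.

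Of 15 tested PPARα targets outside the peroxisome, 6 rose in floxed mice (median 0.88) and 3 in knockout mice (median 0.79), and 5 and 4 were lower in the knockout without and with bexarotene. With a sample left out, the calls of Slc25a20, Creb3l3, Acot1 and Cyp4a10 in floxed mice were lost in 6, 6, 4 and 1 of 9 fits, that of Acot2 in knockout mice in 3 of 8, and those of Cd36, Fabp1 and Cyp4a14 between untreated genotypes in 7, 2 and 1 of 9. All 3 calls in knockout mice were lost with only the compared groups, and that of Acot2 also with a pseudocount of 0.1. With no filter, the calls of Cyp4a10, Acot1, Slc25a20 and Creb3l3 in floxed mice were lost. So were those of Cd36, Fabp1 and Cyp4a14 between untreated genotypes. Of 8 tested receptors and coactivators, none was called with the drug in either genotype. Rxra and Pparg were lower in the knockout without bexarotene, and Rxra under it, and the Pparg call was lost in 7 of 9 fits that left out a sample. Ppara itself stood at 24.79 to 28.33 TPM in controls and 31.86 to 48.37 TPM in treated libraries of floxed mice (0.59 ± 0.25, limma adjusted p = 0.314).

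**Figure D4:**
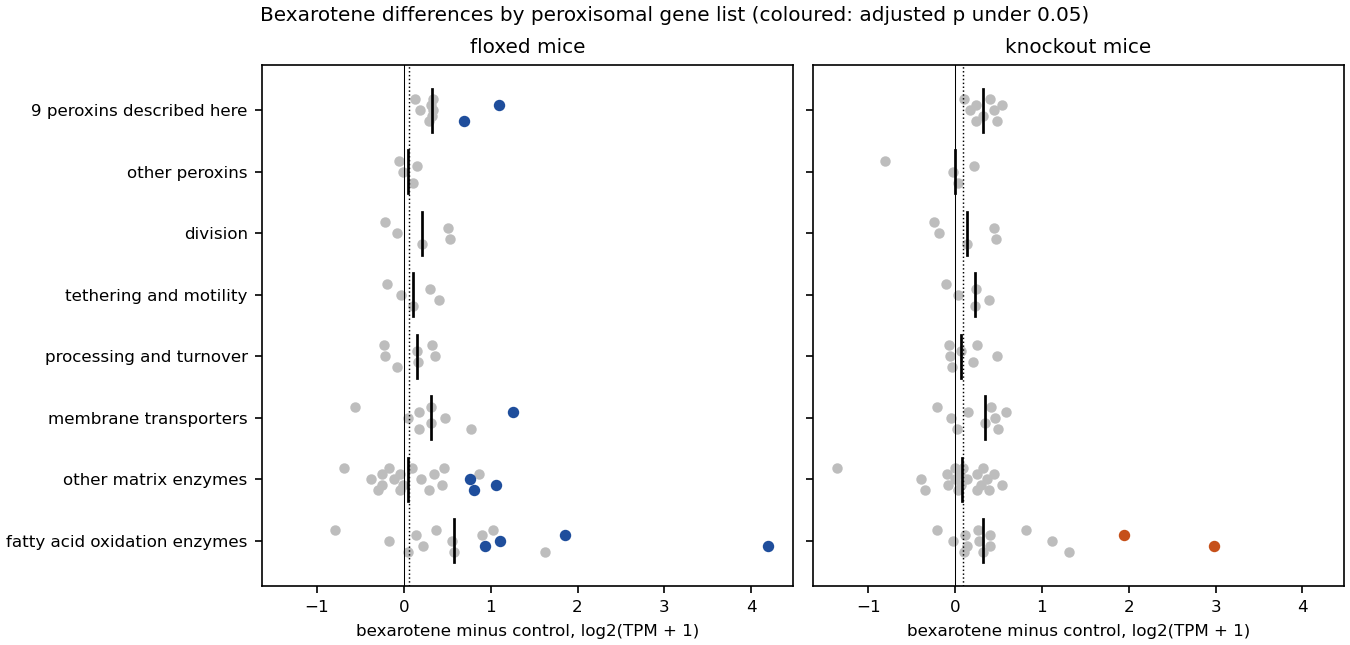
Bexarotene minus control in log2(TPM + 1) for the tested genes of 8 peroxisomal lists, in floxed mice (left) and knockout mice (right). Each point is a gene, coloured where its adjusted p was under 0.05; short lines are list medians and the dotted line the median of all tested genes. The 9 peroxins lie between 0.13 and 1.10 in floxed mice, while fatty acid oxidation enzymes reach 4.20.

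Over the 9 samples, the 5 genes whose log2(TPM + 1) followed Pex11a most closely were Mgll, Smad9, Cpt2, Acot12 and Aadat, with Pearson correlations of 0.992, 0.985, 0.979, 0.977 and 0.976. For Pex19, Vwa8, Slc2a1, Decr1 and Ppl were among the closest, with 0.994, 0.990, 0.981 and 0.978. Pex11a and Pex19 correlated at 0.959 with each other. Against Pex11a the other members ranged from 0.834 for Pex11g to −0.025 for Pex7. These samples share groups, treatment and the clock difference, so the correlations only describe the order of the groups.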

How the data were processed

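RNA of hepatocytes was prepared with an Illumina stranded mRNA kit, per the labels. Per the submitters' processing notes, fastp, HISAT2 and StringTie were used, with no versions stated. The authors deposited TPM per Ensembl gene. Counts, depth, genome build and strand setting are not given in the sources used here, so gene positions are those of GENCODE M21 (GRCm38). Of 26748 identifiers, 21810 (81.5%) had a symbol. Columns named a group and a number that does not follow the titles, so they were assigned to groups only.

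Genes at 1 TPM or more in at least 3 libraries were tested (11018). Libraries of a group differing by under 0.1 log2 beyond counting noise were averaged, which left 9 samples. Log2(TPM + 1), which understates changes of low genes, was modelled in 1 fit of the 4 groups by limma (version 3.58.1, under R 4.3.3; trend, 5 residual and 3.22 prior degrees of freedom). P-values were adjusted by Benjamini-Hochberg over all tested genes and called under 0.05. Intervals are 95% and unadjusted. All 9 peroxins were named; of each other list, up to 4 called genes with the smallest adjusted p or else those of highest TPM, though not all are printed with values, and Mff, Ppara, Hsd17b4 and genes named for a lost call were named after their values were seen. The 9 members and all lists were chosen with earlier results of these data known. Alternatives were other pseudocounts, filters, scalings, sample sets and, chosen after seeing the data, a GC and length trend and a block of column numbers. Protein sequences were not used here. Some genes are not reported here and were left out of the lists, though not of the tests.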

Additional observations from a re-analysis of the deposited data

Results flagged for a closer look

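Ehhadh, on the list of peroxisomal fatty acid oxidation enzymes, was the listed gene whose bexarotene effect differed between genotypes past the test, with an effect in knockout minus that in floxed mice of −2.25 log2 (limma adjusted p = 0.00508).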

How the results depend on the processing

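The titles number the replicates 1 to 3 in every group, while the columns carry other numbers, so a shared column number is not known to pair libraries. Same-numbered control and treated columns had correlations of their deviations from the group means of 0.0361, 0.00529 and 0.143 in floxed and 0.00712 and 0.0624 in knockout mice, and not every library correlated best with its own number. A replicate block of column numbers within each genotype, over 12 separate libraries and chosen after seeing the data, called 1293 genes with bexarotene in floxed mice, 1053 in knockout mice and 1023 for the difference, and 2, 1 (Pex19) and 0 peroxins. Its Pex11g estimate in knockout mice was −0.035 and its Pex16 estimate for the difference −0.015, both not called. It gives no value between genotypes. Other pseudocounts (0.1, 0.5) and a filter of 5 TPM kept the number of called peroxins and of called genes within 1.5 times of the reported ones in every comparison. With 12 separate libraries, the called genes went from 234 to 1062 for bexarotene in floxed mice, 57 to 1105 in knockout mice, 414 to 1302 between genotypes without and 213 to 1589 with bexarotene, and 22 to 651 for the difference between effects, and the called peroxins numbered 2, 1, 2, 3 and 0. These counts treat the close libraries as separate samples. With no filter the genes were 140, 875, 231, 1041 and 689, and no peroxin was called in floxed mice. The share of higher genes among those called was then 76.4%, 96.7%, 42.4%, 81.9% and 92.3%, against 86.8%, 80.7%, 48.8%, 35.2% and 50% as reported. With only the compared groups they were 614, 6 and 158 in the first 3 comparisons. With the GC and length trend removed, 644 genes were called between genotypes without bexarotene and 40 for the difference, with 1 peroxin called in floxed mice (Pex11a, adjusted p = 0.0420) and 1 between genotypes (Pex16). Quantile normalization and median scaling called 0 peroxins in floxed mice. The share of higher genes among those called moved from 86.8% to 76.8% (quantile) and 73.6% (GC) in floxed mice, from 80.7% to 69.8% and 68.3% in knockout mice, and from 50% to 32.5% (GC) for the difference. The causes were not tested.

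Leaving out a sample gave 43 to 553, 22 to 249, 100 to 761, 103 to 435 and 6 to 210 called genes, and 0 to 2, 0 to 0, 0 to 1, 0 to 0 and 0 to 0 called peroxins. Without the treated knockout sample the comparisons that need it have no value. Signs changed only among estimates called in neither setting. These were Pex7 in floxed mice with quantile normalization (−0.0010), Pex5 in knockout mice with median scaling (−0.021), Pex14 between untreated genotypes with 12 libraries (0.0094), and, with the GC trend removed, Pex5 (0.061) and Pex13 (−0.072) between treated genotypes and Pex3 (−0.154), Pex7 (−0.050) and Pex13 (−0.277) in the difference, where Pex13 was also −0.028 (quantile) and −0.030 (median scaling). Over left-out samples, Pex5, Pex13 and Pex14 ran from −0.0029 to 0.133, −0.091 to 0.398 and −0.133 to 0.080 between untreated genotypes, Pex5 from −0.027 to 0.0019 between treated ones, and Pex3, Pex7, Pex13 and Pex14 from −0.080 to 0.284, −0.0051 to 0.257, −0.279 to 0.210 and −0.146 to 0.066 in the difference. TPM keeps no depth, so the precision of the lowest peroxins cannot be stated from counts.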
